A study of Homo sapiens with 6 samples.

Results

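Keratins of simple, single-layered epithelia were read in HCC-LM3 cells with and without a knockdown of ASPP2. They were taken from a list of 8 genes, KRT7, KRT8, KRT17, KRT18, KRT19, KRT20, KRT23 and KRT80, and every array feature carrying one of these names was used. The files name 13 such features. A further 3 stand in the files under a provisional locus name with the gene identifier of KRT80, and were assigned to it through that identifier, so that 16 of 45033 features were described. HCC-LM3 is a human hepatocellular carcinoma line. One group had received lentivirus with an shRNA against ASPP2 (shASPP2), and the other, likewise infected with lentivirus, a control shRNA (shNon). Total RNA was taken a week after infection, from 3 separate cultures per group, and each sample was read on its own 1-colour NimbleGen array. Both groups are the same line with no uninfected cells among them, and the number of shRNA sequences used is not given in the sources used here.

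Keratins are the intermediate filament proteins of epithelial cells, and a filament needs a type I and a type II keratin in equal amounts. KRT8 (type II) and KRT18 (type I) form the basic pair of simple epithelia and are the main keratins of hepatocytes, whereas KRT7 and KRT19 are typical of bile ducts and other ductal epithelia. KRT20 is known from intestinal epithelium and urothelium, KRT17 from basal cells and from stressed or wounded epithelia, and KRT23 from gastrointestinal epithelium and diseased liver. KRT80 is a type II keratin found near the cell margins of differentiating epithelial cells.

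Intensities are the authors' RMA values on a linear scale, and the level of unspecific signal was read from the RANDOM row of each array, which summarises 2508 probes of random sequence. RANDOM was between 30.4 and 30.8 on the shASPP2 arrays and between 31.8 and 33.3 on the shNon arrays, and between 58.9% and 60.9% of features lay at or above 2 times that level. The median of all features spanned 111 to 122 over the 6 arrays, whose number limits the precision. The target gene TP53BP2, which encodes ASPP2, averaged 197 ± 43.5 in shASPP2 and 424 ± 81.9 in shNon (SD, n = 3 each), with no overlap between the groups, a log2 fold change of -1.11 (SE 0.249) and a limma adjusted p of 0.203. Its second feature, with a log2 fold change of -1.41, did not overlap between the groups either (adjusted p = 0.0991).

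One array stood apart by its low values. On shNon array 3, 313 of 23548 features that were at or above 2 times RANDOM on all other arrays lay at least 1.5 log2 below every one of them, against 0 such features on each shASPP2 array, 15 on shNon array 1 and 2 on shNon array 2. The array design describes 42.8% of these 313 features as "similar to" another gene, against 6.196% of the 23548. KRT7 was the 1 keratin of the 16 features among the 313. On the high side, shNon array 1 had 136 features at least 1.5 log2 above every other array. There were 66 on shNon array 3, 11 on shNon array 2, and 12, 2 and 5 on shASPP2 arrays 1, 2 and 3. Log2 intensities of arrays correlated at 0.9576 to 0.972 within shNon and at 0.9832 to 0.9845 within shASPP2. The 1.5 log2 step was chosen after the data had been seen. Results are also given without shNon array 3 where it moves them. Of 16 hepatocyte markers, 7 were at or above 2 times RANDOM on all arrays of a group (ALB, APOH, TF, FGA, FGB, HNF4A and FOXA2), while APOB and SERPINA1 averaged 45.8 and 48.0 in shASPP2 and 46.15 and 25.95 in shNon. ALB, albumin, was just over that limit, at 68.4 ± 4.69 in shASPP2 and 86.5 ± 5.74 in shNon (SD, n = 3 each). The summed hepatocyte markers were 17590 to 18948 in shASPP2 and 22941 to 25734 in shNon, and 2 of the 16, the fibrinogen chains FGA and FGB, were lower past the threshold (limma adjusted p = 0.0262 and 0.0336), where 0.14% of all genes were called. FGA averaged 1535 in shASPP2 and 5094 in shNon, and FGB 1128 in shASPP2 and 3727 in shNon, so these chains make up most of the difference in the sum. Without overlap between the groups, 5 markers were lower and 3 higher, against 18.8% of all genes (9.52% lower and 9.3% higher). Those higher were HNF4A, a hepatocyte transcription factor, at 3794 in shASPP2 and 2562 in shNon (log2 fold change 0.56, limma adjusted p = 0.383), and the dim TTR and SERPINA1. The part of this in the keratin values was not tested.

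Relative to RANDOM, the line gave strong signal for KRT8, KRT18 and KRT20, intermediate signal for KRT7 and KRT80, dim signal for KRT17 and KRT19, and signal close to RANDOM for KRT23. In shASPP2, 12 of the 16 features were at or above 2 times RANDOM on all 3 arrays, and in shNon 10 were. The 2 that made the difference were 1 feature of KRT17 and 1 of KRT19. Without shNon array 3 the shNon count was 12 as well, with both KRT17 features in it and neither KRT19 feature. Intensities of different features depend on their probes, so this order is one of signal over RANDOM and does not rank the amounts of the transcripts.

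After knockdown the KRT80 features were 2.30 to 2.56 times as bright as in shNon and the KRT8 feature 1.63 times as bright, while KRT18 and KRT20 differed little. No keratin feature passed the test across all features: limma, adjusted by Benjamini-Hochberg over 45033 features, called 0 of 16, where it called 0.138% of all features (0.0533% higher and 0.0844% lower). The unadjusted p was under 0.05 for 5 of 16 features (KRT8, 1 of KRT19 and all 3 of KRT80), against 11.4% of all features. With limma's trend and robust options, which let the expected variance depend on brightness and limit the weight of outlying features, 4 of 16 passed, all higher (KRT8 and the 3 of KRT80), against 2.11% of all features (1.02% higher and 1.09% lower). The groups did not overlap in 7 of 16 features, all higher in shASPP2, against 18.6% of all features (9.46% higher and 9.17% lower). The 3 KRT80 features are of the same gene, so features are not independent members in these counts. With 1 feature per gene, the groups did not overlap for 4 of 8 keratins (18.8% of all genes). Of these 8, 2 had an unadjusted limma p under 0.05 (11.6% of all genes), and 2 passed with trend and robust variance (2.28% of all genes). The median log2 fold change was 0.22 over the 16 features and 0.01 over all features. As the RNA is from whole cultures, a change in the share of cells that express a keratin and a change of its RNA per cell cannot be told apart.

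**Figure D1:**
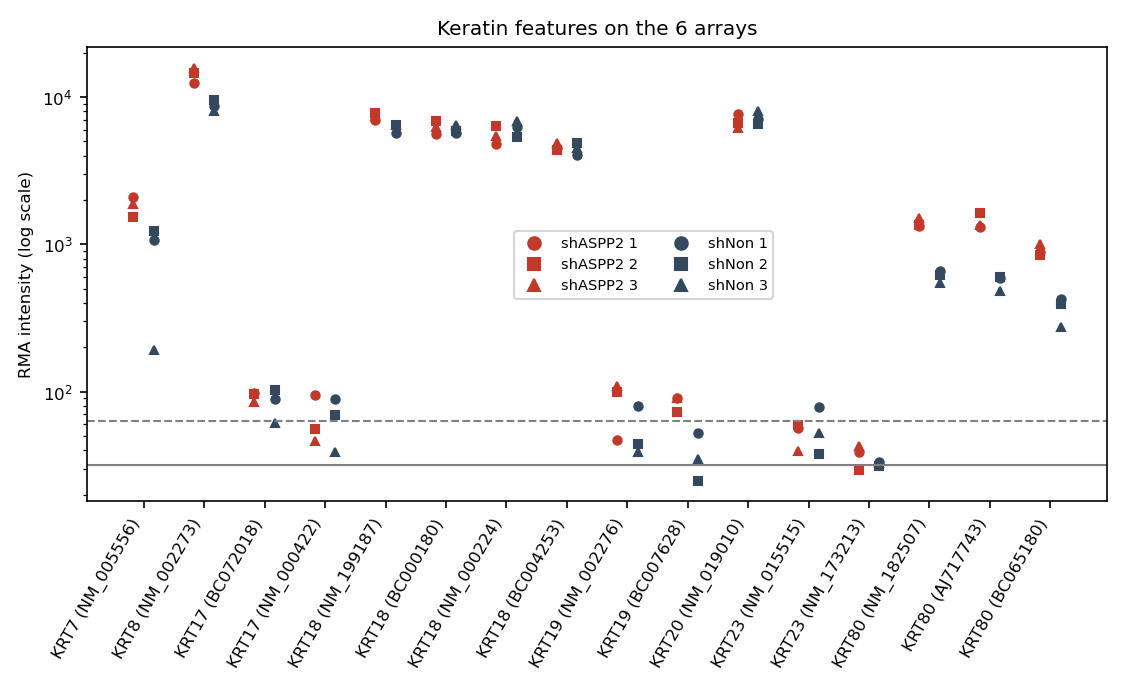
RMA intensity (log axis) of the 16 keratin features on each of the 6 arrays, shASPP2 in red and shNon in dark blue, with 1 symbol per replicate number. The solid line is the mean RANDOM level and the dashed line the mean of 2 times RANDOM. KRT8, KRT18 and KRT20 lie far above both lines on every array, the 3 KRT80 features are separated by group, and the KRT7 value of shNon array 3 (192) lies apart from the other 5.

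KRT80 was about as far apart on each of its 3 features. The gene lies on chromosome 12, between 50849047 and 50872051 over its 3 features on hg18, in the cluster of type II keratin genes. Feature NM_182507 had 1326, 1351 and 1499 in shASPP2 and 657, 618 and 543 in shNon. Feature AJ717743 had 1305, 1643 and 1349 in shASPP2 and 594, 599 and 485 in shNon. Feature BC065180 had 893.7, 851.2 and 1000 in shASPP2 and 425.1, 391.5 and 276.7 in shNon. On all 3 features every shASPP2 array was above every shNon array, and the lowest shASPP2 array was at least 28.0 times RANDOM.

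The log2 fold changes of KRT80 were 1.20 (SE 0.173, 95% interval 0.80 to 1.61), 1.36 (SE 0.190, 0.91 to 1.80) and 1.35 (SE 0.217, 0.84 to 1.86) in that order. The limma adjusted p-values were 0.0927, 0.0819 and 0.113, all over the threshold. With trend and robust variance they were 2.06e-04, 7.38e-05 and 5.01e-04. When only features at or above 2 times RANDOM in a group were tested, the 3 features also passed, with adjusted p-values of 0.0193, 0.0194 and 0.0311. The replicate block gave 0.397 to 0.417. Without shNon array 3 the log2 fold changes were 1.13, 1.26 and 1.16, so that the difference did not rest on that array.

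**Figure D2:**
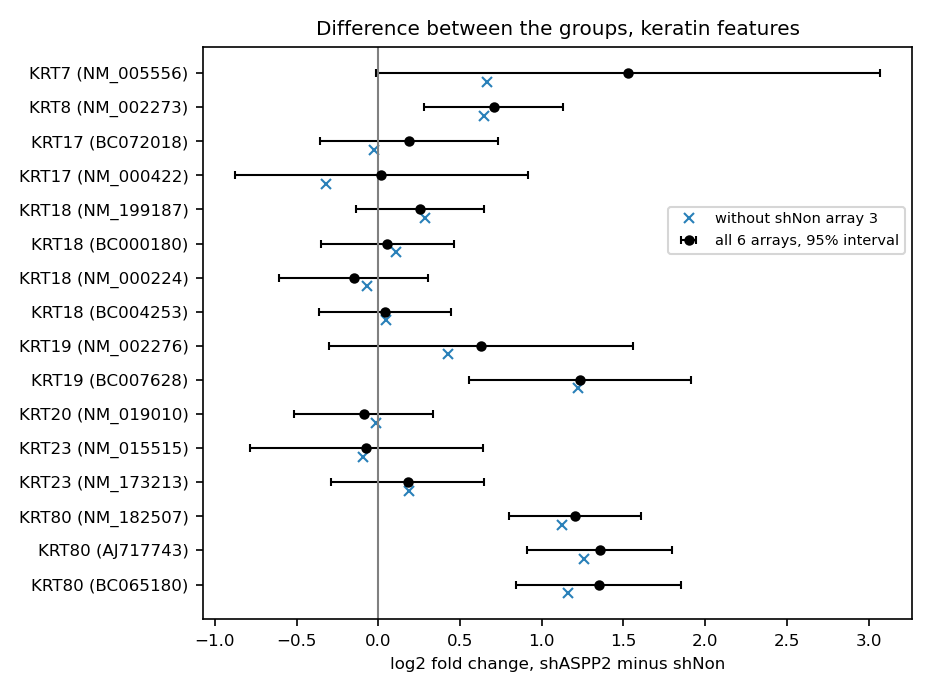
Log2 fold change (shASPP2 minus shNon) of each keratin feature with limma's 95% interval over all 6 arrays (black), and the same fold change without shNon array 3 (blue crosses). The KRT80 intervals lie wholly above 0 and its values without the array are 1.13 to 1.26, while the KRT7 value without it is 0.67.

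KRT8 is the type II partner in hepatocyte filaments and was represented by a single feature, NM_002273 (chromosome 12, 51577237 to 51585127, hg18). It had 12535, 14604 and 15857 in shASPP2 and 8716, 9522 and 8059 in shNon. The groups did not overlap, and the lowest array was 242 times RANDOM. The log2 fold change was 0.71 (SE 0.181, 95% interval 0.28 to 1.13), with a limma adjusted p of 0.247. It was 0.00198 under the trend and robust options, the 1 of 15 alternatives that passed. The filters at 2 times RANDOM and at the median level gave 0.0786 and 0.0644, and the replicate block 0.491. Leaving out any 1 array moved the fold change within 0.63 to 0.80.

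KRT18, its type I partner, lies 43.8 kb further along chromosome 12 (51628921 to 51632952, hg18), outside the type I cluster of chromosome 17. It had 4 features, which did not all point the same way. The brightest, NM_199187, had 6992, 7851 and 7445 in shASPP2 and 5741, 6462 and 6507 in shNon, and its groups did not overlap. For this feature limma gave a log2 fold change of 0.25, with an SE of 0.167, a 95% interval of -0.14 to 0.64 and an adjusted p of 0.610. On the other 3 features, with group means between 4475 and 6251, the groups overlapped. The log2 fold changes there were 0.05 for BC000180, 0.04 for BC004253 and -0.15 for NM_000224. A difference of more than 0.64 log2 lay outside the 95% interval of each of the 4 features, on either side.

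KRT8 and KRT18 were set against each other within arrays, since they act as a pair. With NM_199187, the log2 of KRT8 signal over KRT18 signal was 0.84, 0.90 and 1.09 in shASPP2 and 0.60, 0.56 and 0.31 in shNon. The group difference was 0.45 log2, and all 3 shASPP2 arrays were above all 3 shNon arrays (p = 0.1 in a two-sided exact permutation test, which 3 against 3 cannot go below). With the other 3 KRT18 features it was 0.65, 0.86 and 0.67 log2, again without overlap, and each exact p was 0.1. These 4 ratios share the KRT8 values. The test could not reach 0.05, so it does not decide whether the 2 genes differed unequally. The ratio describes the measured signals, not the amounts of the 2 transcripts.

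**Figure D3:**
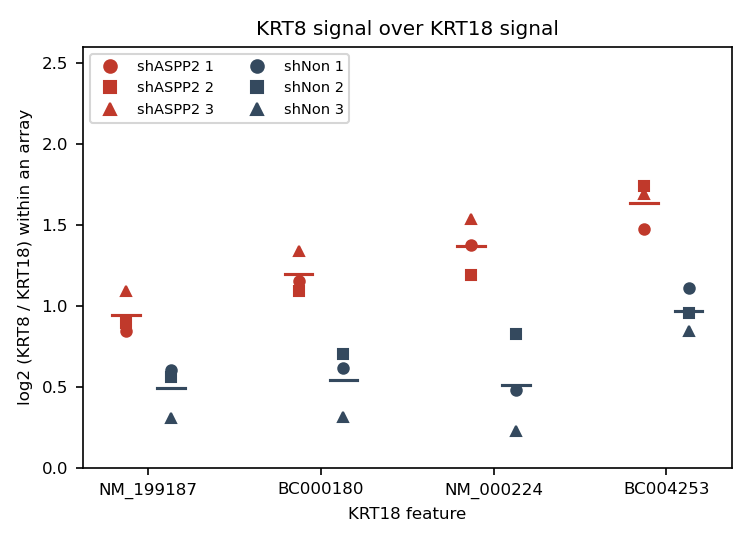
Log2 of the KRT8 intensity over the intensity of each of the 4 KRT18 features within an array, shASPP2 in red and shNon in dark blue, with bars for the group means. For each KRT18 feature the 3 shASPP2 arrays lie above the 3 shNon arrays, with group differences of 0.45 to 0.86 log2.

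KRT20, a type I keratin of intestinal epithelium, gave strong signal in this liver-derived line and differed little between the groups. Feature NM_019010 (chromosome 17, 36285718 to 36295005, hg18) had 7633, 6648 and 6154 in shASPP2 and 7103, 6603 and 8020 in shNon. The groups overlapped, and the lowest array was 200.1 times RANDOM. The log2 fold change was -0.09 (SE 0.182, 95% interval -0.51 to 0.34, limma adjusted p = 0.884). Of the 28 keratin genes measured on chromosome 17, KRT20 was the 1 gene with a feature at or above 10 times RANDOM on all 6 arrays.

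The KRT20 promoter is shown because this gene was the bright type I keratin of that cluster. RefSeq promoter sequence (GRCh38.p14) was at hand for 2 of the 8 genes, KRT8 and KRT20. The window covers 250 bases before and 50 bases after the annotated start, at chr17:40885193-40885492 on the minus strand. Capitals mark matches on either strand to 4 short motifs that were searched.
KRT20 promoter: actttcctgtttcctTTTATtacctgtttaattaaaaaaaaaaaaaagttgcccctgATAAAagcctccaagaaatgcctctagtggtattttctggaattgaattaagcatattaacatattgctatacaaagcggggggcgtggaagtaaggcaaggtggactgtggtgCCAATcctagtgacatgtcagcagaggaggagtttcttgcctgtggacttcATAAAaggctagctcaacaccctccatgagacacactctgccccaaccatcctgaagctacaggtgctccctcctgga

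The core of the motif of CDX factors, which act in intestinal epithelium, was searched as TTTAT and matched at 3 places. These matches start at bases 16, 58 and 223 of the window. The CCAAT box, searched as CCAAT, matched once. TTTAT stands in 34.9% and CCAAT in 34.6% of the 35116 RefSeq promoter windows of the same length. The exact strings TATAAA, for the TATA box core, and GGGCGG, for the GC box, had no match in this window. They stand in 11.5% and 44.95% of all windows. Variants of these strings were not searched, so the absence of a TATA box is not shown. TTTAT can lie within TATAAA read on the other strand, and no exact TATAAA occurred here. The match at base 223, shortly before the annotated start, reads CATAAA, which differs from TATAAA in its first letter only. It is counted under the CDX core, and whether it acts as a TATA box or a CDX site was not tested. These matches describe the letters of the window and not a bound site.

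KRT7, a type II keratin of ducts, had 1 feature, NM_005556 (chromosome 12, 50913220 to 50928976, hg18), which starts 41.2 kb from the end of KRT80. It had 2099, 1535 and 1881 in shASPP2 and 1073, 1229 and 192 in shNon. The groups did not overlap, but the highest shNon array was 6.39 times the lowest, against 1.37 times in shASPP2. The log2 fold change was 1.53 (SE 0.660, 95% interval -0.02 to 3.07, limma adjusted p = 0.446). Without shNon array 3 it was 0.67 (adjusted p = 0.326), and without shNon array 1 or 2 it was 1.91 or 2.01. By the root-mean-square difference between centred log2 profiles over the 6 arrays, the genes nearest to KRT7 among 12044 were WDR5CP (0.158), which RefSeq lists as a transcribed pseudogene, and ACTC1 (0.182), cardiac actin. ACTC1 had 3598, 3311 and 3380 in shASPP2 and 2468, 2751 and 460 in shNon, so that it was also low on shNon array 3.

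The same array was low on many features whose descriptions name them as copies of KRT8 or KRT18. These 2 genes have many processed pseudogenes, and near-identical copies may share signal on an array. Of 17 features described as similar to KRT8 (11) or KRT18 (6), 16 were at or above 2 times RANDOM on all 6 arrays, and the other, LOC441799, lay near RANDOM on most. On 12 of these 16, shNon array 3 was the lowest of the 6 arrays, and on 6 it lay at least 1.5 log2 below all others. KRT8P26, a KRT8 pseudogene, had 2117, 1516 and 1972 in shASPP2 and 1511, 1166 and 147 in shNon. KRT18P36, a KRT18 pseudogene, had 3419, 2317 and 2620 in shASPP2 and 1354, 2916 and 408 in shNon.

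All 16 keratin-like features had positive log2 fold changes, from 0.34 to 1.57, with a median of 0.72. They were selected by description after the data had been seen. Limma called 0 of the 16 (0.138% of all features), 4 had an unadjusted p under 0.05 (11.4% of all features), and 3 passed with trend and robust variance (2.11% of all features). On 10 of them the groups did not overlap, all higher, against 18.6% of all features. Without shNon array 3 the range was -0.03 to 0.67 and the median 0.40. Among the KRT8-like features 7 belong to the locus named LOC643730, with log2 fold changes between 0.38 and 0.90 and no overlap between the groups on any of them. The 4 with an unadjusted limma p under 0.05 and the 3 that passed with trend and robust variance are all among these 7. Those counts thus rest on a single locus. How far KRT8, its copies and KRT7 share signal was not tested, and single values of these features are uncertain to that degree.

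**Figure D4:**
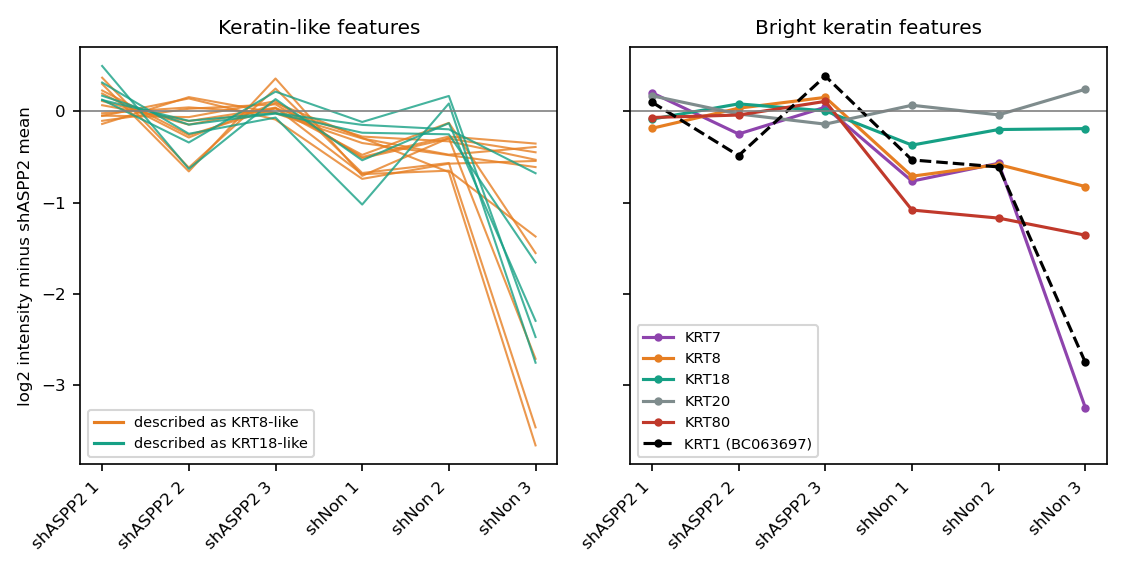
Log2 intensity on each array minus the mean of the 3 shASPP2 arrays, for the 16 features described as KRT8-like (orange) or KRT18-like (green) on the left, and for the bright keratin features on the right. Lines join the arrays of 1 feature. KRT7 and KRT1 feature BC063697 drop on shNon array 3 as several keratin-like features do, whereas KRT18 and KRT20 do not. KRT80 (NM_182507) and KRT8 are also lowest on that array, by less. KRT80 had 543 there, against 657 and 618 on shNon arrays 1 and 2, and KRT8 had 8059, against 8716 and 9522.

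KRT19, the type I keratin of bile ducts, was dim. Feature BC007628 (chromosome 17, 36933395 to 36938071, hg18) had 90.7, 72.5 and 90.35 in shASPP2 and 52.5, 24.8 and 35.1 in shNon. The groups did not overlap, and all 3 shNon arrays were under 2 times RANDOM. Taking 2 times RANDOM as the limit of detection, shASPP2 averaged 1.29 times the shNon limit, a ratio that leaves out the spread between arrays. The lowest shASPP2 array, at 72.5, was close to the highest shNon limit, at 66.5. Measured means were 84.5 in shASPP2 and 37.5 in shNon, with a limma adjusted p of 0.218. Feature NM_002276 of the same gene had 46.99, 99.02 and 108.9 in shASPP2 and 79.65, 44.18 and 38.95 in shNon, with overlapping groups and a log2 fold change of 0.63 (SE 0.399), which was 0.40 to 1.01 when 1 array was left out (1.01 without shASPP2 array 1, 0.40 without shASPP2 array 3). The 2 features thus differed in whether the groups were apart.

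KRT17, a type I keratin of basal and stressed epithelia, was dim. Its feature BC072018 had 98.07, 97.05 and 85.37 in shASPP2 and 88.89, 101.8 and 60.85 in shNon, at most 3.21 times RANDOM. Its feature NM_000422 had 95.51, 56.15 and 46.09 in shASPP2 and 88.7, 69.3 and 38.7 in shNon. The groups overlapped on both, and the log2 fold changes were 0.19 (SE 0.232) and 0.02 (SE 0.382). Without shNon array 3 both turned to the other side, at -0.03 and -0.32. KRT23, a type I keratin, lay close to RANDOM. KRT23 feature NM_015515 had 56.7, 59.5 and 39.6 in shASPP2 and 78.4, 37.9 and 52.5 in shNon, and feature NM_173213 had 39.1, 29.5 and 43.0 in shASPP2 and 33.4, 31.1 and 32.8 in shNon. Its groups overlapped on both features. At these dim levels the values neither show nor exclude a difference in KRT17 or KRT23.

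Other keratins were mostly at the level of RANDOM. Of 47 further keratin genes, covering epidermal, oral, corneal and hair keratins with 66 features, 10 genes had a feature at or above 2 times RANDOM on all arrays of a group. One feature, BC063697 of KRT1, exceeded 500 on any array, and the highest value of the other 65 was 242. BC063697 had 4685, 3123 and 5710 in shASPP2 and 3022, 2866 and 650 in shNon, with a log2 fold change of 1.30, and of 0.57 without shNon array 3. The other KRT1 feature, NM_006121, averaged 26.0 in shASPP2 and 41.8 in shNon, so that the 2 KRT1 features disagree and give no level for this epidermal keratin.

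Of the 30 other epithelial keratins, limma called 0, as did the trend and robust options, against 0.14% and 2.28% of all genes with 1 feature each. An unadjusted p under 0.05 was seen for 5 (11.6% of all genes). The groups did not overlap for 5 higher and 2 lower, against 18.8% of all genes (9.3% higher and 9.52% lower), and the median log2 fold change was -0.04. The members with the smallest p were KRT3 (log2 fold change 0.92), KRT13 (0.74) and KRT9 (-0.56), and KRT13 and KRT9 averaged under 2 times RANDOM in both groups. Of 17 hair keratins limma called 0 with either variance and 3 had an unadjusted p under 0.05 (11.6% of all genes). Their groups did not overlap for 0 higher and 1 lower (18.8% of all genes), and the median was 0.07. The smallest p-values were those of KRT35 (-0.58), KRT33A (-1.05) and KRT86 (0.77), all dim. In shASPP2 and shNon, KRT35 averaged 1.53 and 2.14 times RANDOM, KRT33A 0.781 and 1.66 times and KRT86 3.07 and 1.67 times. Markers of stratified squamous epithelium, where many of these keratins are made, were at or above 2 times RANDOM for 1 of 9 genes, with summed intensities of 531.7 to 796.1 in shASPP2 and 380 to 915 in shNon.

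Plakins and desmosomal plaque proteins, which anchor keratin filaments at junctions, were mostly well above RANDOM and differed little. Of 12 genes, 10 were at or above 2 times RANDOM, and the median log2 fold change was 0.11, where that of all genes was 0.01. Limma called 0 with either variance, against 0.14% of all genes, or 2.28% with trend and robust variance. An unadjusted p under 0.05 was seen for 0, against 11.6% of all genes. With 12 genes, these counts cannot tell the list from all genes. DSP, desmoplakin, was the 1 gene of the list without overlap between the groups, lower in shASPP2, against 18.8% of all genes. It averaged 6778 ± 385 in shASPP2 and 7464 ± 163 in shNon (SD, n = 3 each), with a log2 fold change of -0.14. JUP, plakoglobin, had 0.32, DST, dystonin, 0.27 and PKP1, plakophilin 1, -0.47, and these had the smallest p-values of the list. PKP1 lay near RANDOM, at 0.979 times that level in shASPP2 and 1.40 times in shNon, and its value without shNon array 2 was -0.06.

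Among proteins that bind or cleave keratins limma called 0 of 12, where it called 0.14% of all genes. An unadjusted p under 0.05 was seen for 3 (11.6% of all genes), and 2 passed with trend and robust variance (2.28% of all genes). SFN, the 14-3-3 sigma protein, averaged 12824 ± 1744 in shASPP2 and 8001 ± 986 in shNon (SD, n = 3 each), a log2 difference of 0.68 (limma adjusted p = 0.283, and 0.00465 with trend and robust variance). HSPB1, a small heat shock protein that associates with keratin filaments, had a log2 fold change of 0.48 (adjusted p = 0.368, and 0.0133 with trend and robust variance). DNAJB6, a co-chaperone that binds KRT18, had 0.51.

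Of 16 other intermediate filament genes limma called 0 (0.14% of all genes), with a median log2 fold change of 0.13. An unadjusted p under 0.05 was seen for 2, NES and LMNA, a share near the 11.6% of all genes. Both were past the threshold under the trend and robust options, as were 2.28% of all genes. NES, nestin, averaged 6337 ± 265 in shASPP2 and 3923 ± 376 in shNon (SD, n = 3 each), with a log2 fold change of 0.70 (adjusted p = 0.230, and 0.00300 with trend and robust variance). LMNA, which encodes the nuclear lamins A and C, averaged 23415 ± 1823 in shASPP2 and 15040 ± 1105 in shNon (0.64, adjusted p = 0.259, and 0.00191 with trend and robust variance). VIM, vimentin, the filament protein of mesenchymal cells, was low and variable, at 188 ± 112 in shASPP2 and 95.4 ± 78.2 in shNon (SD, n = 3 each; log2 fold change 1.01, adjusted p = 0.630). DES, the muscle filament protein desmin, was near RANDOM in both groups.

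The profiles most like those of the other separated keratins were found by the same measure. For KRT8 they were ACTN4 (0.0402), an actin cross-linker, and ATAD3B (0.0463), a mitochondrial membrane protein. For KRT18 GTF3C2 (0.0301), a subunit of a general transcription factor, is named, and for KRT80 they were CAVIN3 (0.0792) and SERPINE2 (0.0884). SERPINE2, a secreted protease inhibitor, had 11751, 10718 and 10950 in shASPP2 and 5562, 5095 and 4593 in shNon. With 6 arrays in 2 groups, any gene with a like group difference and small spread comes out near.

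Markers of other cell types were read on the same arrays. Bile duct markers other than keratins were at or above 2 times RANDOM for 3 of 10 (SOX9, SPP1 and ANXA4), with summed intensities of 15930 to 17717 in shASPP2 and 17223 to 18522 in shNon, and EPCAM averaged 34.8 in shASPP2 and 29.3 in shNon. Fibroblast and stellate markers were so for 4 of 10, with sums of 690 to 845 in shASPP2 and 596 to 821 in shNon. Endothelial markers were so for 1 of 9, PECAM1 (968 ± 134 in shASPP2 and 1866 ± 84.7 in shNon), with sums of 1158 to 1380 in shASPP2 and 2209 to 2276 in shNon, and CDH5 averaged 1.38 times RANDOM in shASPP2 and 2.49 times in shNon, and VWF 1.62 times in shASPP2 and 1.55 times in shNon. Leukocyte markers were so for 2 of 8 (CD68 and ITGAM), with sums of 3989 to 4548 in shASPP2 and 2989 to 4062 in shNon, and PTPRC averaged 45.4 in shASPP2 and 34.0 in shNon. Their part too was not tested.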

How the data were processed

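RNA of 6 HCC-LM3 cultures was read on 1-colour arrays. The authors deposited linear intensity values, 1 for each feature of each array. The submitters' processing notes name RMA, with its version and settings not given. RMA compresses low intensities, which makes the fold changes of dim genes too small. The value table that the authors also deposited differed from them in 0 cells. Symbols came from gene identifiers through RefSeq (GRCh38.p14, names only), and coordinates are the files' own on hg18.

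Log2 intensities of all 45033 features (RANDOM left out) were fitted in R 4.3.3 by limma 3.58.1 on group alone. P-values are two-sided, adjusted by Benjamini-Hochberg over all features, and called under 0.05. Every log2 fold change has shASPP2 on top. In the lists a gene was read from its brightest feature by mean log2 intensity. The fit was tested on simulated data with known changes. The alternatives tried were leaving out each array, the value table, 2 filters on dim features, array weights, 1 feature per gene, limma's trend and robust options, the replicate block, and rescaling by median centring or cyclic loess.

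Named were all features of the 8 keratins, TP53BP2, the list members past the threshold and up to 3 with the smallest p per list of related genes, and the 2 nearest profiles of each separated keratin, of which 1 is not reported here. Further list members are named for their known role, chosen after their values were seen. The members and lists were chosen with earlier results of these data known.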

Additional observations from a re-analysis of the deposited data

How the results depend on the processing

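No keratin feature was past the threshold in any of the 6 fits without 1 array, nor with array weights, the deposited value table, cyclic loess, median centring, 1 feature per gene or the replicate block. There were 3 past it with either filter on dim features and 4 with trend and robust variance. Over all features, where 62 were called, the counts were 350 with the filter at 2 times RANDOM, 405 with the filter at the median level, 952 with trend and robust variance, 24 with 1 feature per gene, 0 with the replicate block, and 0 to 17 when 1 array was left out, which also leaves fewer samples. The TP53BP2 value of -1.11 was past the threshold under the trend and robust options of limma (adjusted p = 0.0225). The labels number the replicates and state no pairing. Same-numbered arrays had deviations from their group means that correlated at 0.06, -0.08 and -0.13 over all features. These values show no pairing but cannot exclude one, and the block leaves fewer residual degrees of freedom.

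Of 222 single-feature values under alternatives, 201 kept their sign and side of the threshold, 10 passed it and 11 changed sign, all 11 on features whose groups overlapped. KRT17 feature NM_000422 was at -0.0147 with median centring, at -0.0128 with cyclic loess, at -0.16 with array weights and at -0.32 to 0.28 when 1 array was left out. The ranges without 1 array were -0.028 to 0.34 for KRT17 feature BC072018, -0.0157 to 0.13 for KRT18 feature BC000180, -0.0325 to 0.11 for KRT18 feature BC004253 and -0.33 to 0.20 for KRT23 feature NM_015515. Counts of separated keratin features (7 to 8) and of those over RANDOM stayed within 1.5 times the reported counts, and the KRT8 to KRT18 difference was 0.36 to 0.51 log2. Signal over background limits KRT17, KRT19 and KRT23.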
